A study of Mus musculus with 4 samples.

Results

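The contractile unit of heart muscle was examined through 38 ventricular sarcomere and Z-disc genes in left ventricles of KDM5B-knockout (KO) and wild-type (WT) mice at 7 days after myocardial infarction (MI). The genes were chosen by name, and the names matched 81 probes of a single-colour Agilent Whole Mouse Genome array holding 41174 probes. Each gene is represented by its brightest probe over the 4 arrays, and all 38 genes were tested, among 14025 tested genes in all. MI was made by permanently tying off the left anterior descending artery in mice described as male and 8 to 10 weeks old. WT mice were C57BL/6 littermates. KO mice carried a CRISPR/Cas9 deletion with a frameshift in the JmjC domain of Kdm5b, a histone demethylase, on the same background, with no driver that restricts it to a cell type. There were 2 arrays per genotype, called WT 2, WT 3, KO 2 and KO 3 after the numbers in their labels. All 4 samples came from infarcted ventricle without a sham group, the labels do not say which area of the ventricle was taken, and nothing states how many animals an array holds.

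In the sarcomere, myosin thick filaments pull on actin thin filaments that are anchored in the Z-disc, titin spans from Z-disc to M-band, and troponin and tropomyosin switch the thin filament on with calcium. Costameres, sarcoglycans and the desmin network tie this lattice to the membrane and to neighbouring myofibrils. Loss of cardiomyocytes to ischemia removes these transcripts from the ventricle, while fibroblasts and leukocytes enter the scar.

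Some features of the arrays bear on every result. All 4 lay on 1 slide with WT and KO at different positions, so position and genotype cannot be told apart. Before scaling, the X-inactivation RNA Xist reached a log2 signal of 14.13 (WT 2) and 13.24 (KO 2) but did not clear background at number 3, whereas Y-linked Ddx3y cleared it at number 3 alone, so the number 2 arrays go against their label of male and the arrays of a genotype do not hold RNA of the same animal. Each number holds 1 array per genotype, and array number cannot be told apart from this Xist and Ddx3y signal. The atrial light chain genes Myl7 (6.39) and Myl4 (5.46) were high on KO 2 and lay between -0.70 and 0.23 on the remaining arrays, and results are also given without KO 2. Kdm5b itself read -0.87 and -1.81 in WT and -2.40 and -2.26 in KO in its brighter probe, a difference of -0.996 with a standard error (SE) of 0.40 and a limma adjusted p of 0.9999, and where this probe lies relative to the deletion was not determined. Throughout, a level is a log2 signal relative to the 75th percentile of its array, and a difference is KO minus WT on that scale. A gene's level is given for number 2 first and number 3 second within each genotype. Levels of different probes are not compared.

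To ask whether loss of KDM5B changed the contractile transcripts of the infarcted ventricle, KO was compared with WT by limma. None of the 38 genes was called at an adjusted p under 0.05 with a fold change over 2, against 0% of all genes tested, and 0 had an unadjusted p under 0.05, against 1.39%. None differed more than 2-fold in either direction, against 3.52% of all genes. The adjusted p was 0.9999 for every gene. The difference was positive for 30 genes and negative for 8, and its median was 0.16 (range -0.26 to 0.54), beside 0.04 for all tested genes and -0.03 after quantile normalization. The smallest two-sided p that exact permutation of 2 and 2 arrays allows is 0.33.

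The genotypes differed in opposite directions at the 2 array numbers. At number 2, 36 of 38 genes were higher in KO, against 53.5% of all tested genes, with a median of 0.98. At number 3, 37 of 38 were lower in KO, against 46% of all genes, with a median of -0.66. KO 2 exceeded WT 2 more than 2-fold for 19 of the 38 genes (6.94% of all genes) and for 0 in the other direction (9.43%). KO 3 was more than 2-fold below WT 3 for 1 gene (1.78%) and above it for 0 (2.51%). The arrays thus lay in the order KO 2, WT 2, WT 3, KO 3 from high to low for 34 of 38 genes, an order held by 19.7% of all tested genes. Xirp2, Des, Cryab and Trim55 were the exceptions. The median level of the 38 genes was 5.27 and 4.55 in WT and 6.08 and 3.93 in KO, so both KO arrays lay outside the WT pair, on opposite sides. In RNA of ventricle tissue, from an area that is not stated, fewer cardiomyocytes and less of these RNAs per cardiomyocyte cannot be told apart. Without KO 2 the median difference was -1.12, and without KO 3 it was 1.41. Without WT 2 it was 0.54, and without WT 3 it was -0.27.

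**Figure D1:**
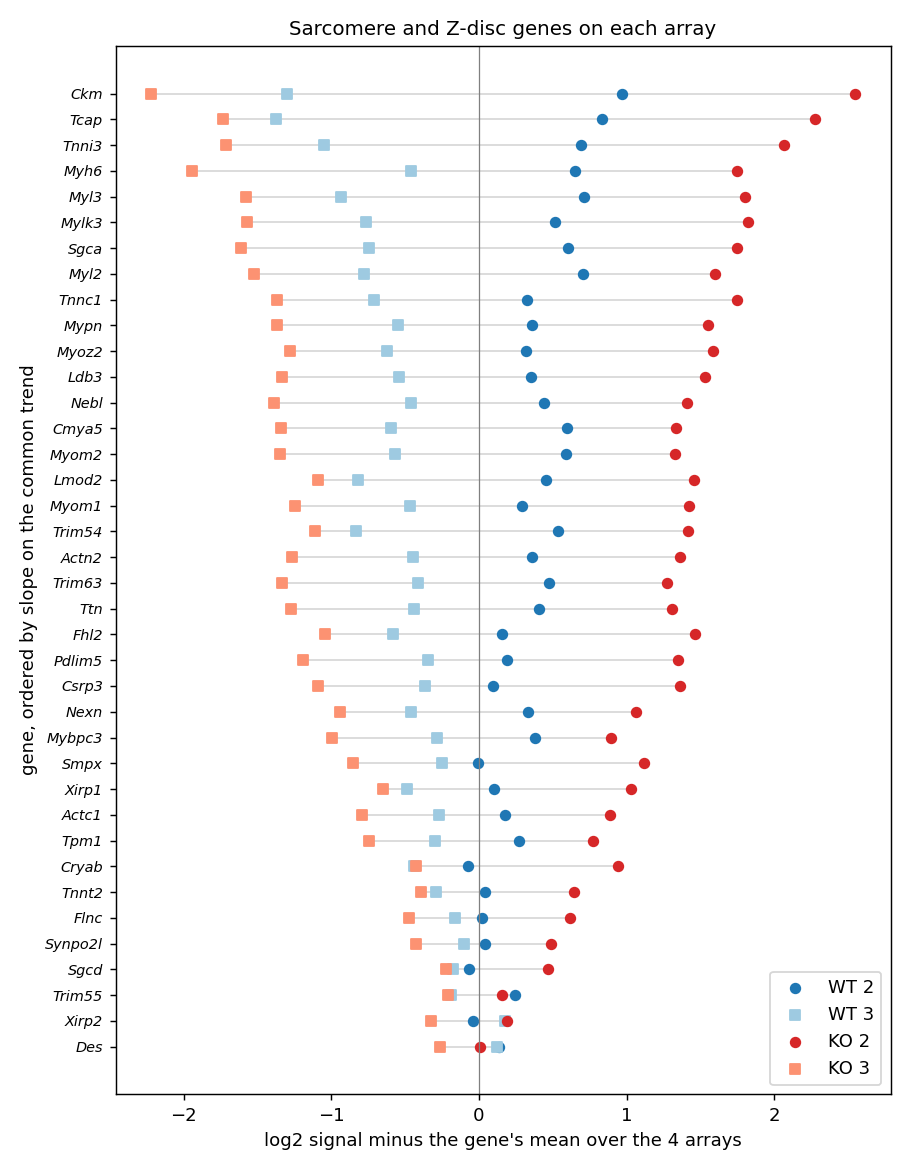
Level of each of the 38 genes on each array as log2 signal minus the mean of the gene over the 4 arrays, with WT in blue, KO in red, circles for number 2 and squares for number 3, and genes ordered by slope on the common trend. For most genes KO 2 is the rightmost point and KO 3 the leftmost, and the spread narrows from Ckm (4.77) at the top to Des (0.40) at the bottom.

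The size of this swing differed among the genes. The range over the 4 arrays ran from 0.40 to 4.77, with a median of 2.56, beside 0.74 for all tested genes. To express it on a common scale, each gene was given a slope, the change in its level per log2 unit of the common trend, which is the median deviation of the other 37 genes on each array. A slope of 1 is a gene that moved as the others did. The median slope was 1.03, and 24 of 38 genes lay between 0.5 and 1.3, while 7 lay above 1.3 and 7 below 0.5. The steep genes were Ckm, Tcap, Tnni3, Myh6, Myl3, Mylk3 and Sgca, and the flat ones Des, Xirp2, Trim55, Sgcd, Synpo2l, Tnnt2 and Flnc. A slope rests on 4 points of the brightest probe and is a description.

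Sequences upstream of the flattest and steepest genes with an entry are shown as the genome context of transcripts that differed most in swing. Shown with them is Myl3, which was added for its motif matches and not for its rank by slope. All sequences are the 250 bases before the RefSeq gene start (GRCm38.p6), 5′ to 3′, with motif matches in capitals.
Des, chr1:75360042-75360291 (+ strand): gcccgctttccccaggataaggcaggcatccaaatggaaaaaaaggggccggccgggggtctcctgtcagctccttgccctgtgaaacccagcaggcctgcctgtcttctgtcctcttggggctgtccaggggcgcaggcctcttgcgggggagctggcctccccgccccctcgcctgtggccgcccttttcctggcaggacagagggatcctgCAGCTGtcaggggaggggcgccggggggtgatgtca
Xirp2, chr2:67445752-67446001 (+ strand): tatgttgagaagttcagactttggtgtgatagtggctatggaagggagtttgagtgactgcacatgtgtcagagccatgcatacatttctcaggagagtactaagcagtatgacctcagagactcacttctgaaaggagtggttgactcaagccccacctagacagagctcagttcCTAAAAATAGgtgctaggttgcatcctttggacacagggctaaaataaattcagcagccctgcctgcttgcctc
Ckm, chr7:19410844-19411093 (+ strand): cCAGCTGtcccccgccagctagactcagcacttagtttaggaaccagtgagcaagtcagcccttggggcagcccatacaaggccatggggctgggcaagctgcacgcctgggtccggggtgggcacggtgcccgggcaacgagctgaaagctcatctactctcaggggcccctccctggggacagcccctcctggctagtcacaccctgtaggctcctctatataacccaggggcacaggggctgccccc
Tnni3, chr7:4522529-4522778 (- strand): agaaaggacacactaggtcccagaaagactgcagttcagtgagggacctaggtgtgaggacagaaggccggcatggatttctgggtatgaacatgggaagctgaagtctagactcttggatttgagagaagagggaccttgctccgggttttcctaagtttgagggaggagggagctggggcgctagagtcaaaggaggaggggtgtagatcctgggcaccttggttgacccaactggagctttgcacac
Myl3, chr9:110763428-110763677 (+ strand): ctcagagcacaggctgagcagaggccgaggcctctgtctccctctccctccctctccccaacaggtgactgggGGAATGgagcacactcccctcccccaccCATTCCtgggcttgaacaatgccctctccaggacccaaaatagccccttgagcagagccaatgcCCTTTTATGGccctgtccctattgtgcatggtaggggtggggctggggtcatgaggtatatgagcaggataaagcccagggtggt
The capitals mark an E-box in Des and in Ckm, a MEF2 motif in Xirp2, and a CArG box and both MCAT matches in Myl3. Tnni3 had no match. Of the 38 genes, 32 had an entry in the promoter table, and Cryab, Myom2, Nexn, Tcap, Trim55 and Xirp1 were without one. With both strands searched and no overlapping matches among these genes, the MEF2 motif stood in 6 of 32 genes (18.8%, against 3.42% of all genes in the table), the CArG box in 6 (18.8%, against 1.62%), MCAT (CATTCC) in 12 (37.5%, against 14.4%) and the E-box CAGCTG in 9 (28.1%, against 14.7%). The motif TGATAA stood in Mybpc3 alone (3.13%, against 9.21%). Any of these 5 motifs was found in 24 of 32 genes, against 36.2% of all genes. Tnnt2, flat in its brightest probe (slope 0.40) but not in a dimmer one (1.08), held 1 MCAT match and 2 E-boxes. Whether motifs go with slope was not tested. A match describes the letters of this window only.

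Thick filament genes followed the trend together. All 5 (Myh6, Myl2, Myl3, Mybpc3 and Mylk3) lay above WT at number 2 and below it at number 3, with a median difference of 0.07 (1.09 at number 2, -0.75 at number 3). Myh6, the alpha myosin heavy chain of adult mouse ventricle, read 6.59 and 5.47 in WT and 7.68 and 3.99 in KO. It was the only one of the 38 genes over 2-fold lower in KO at number 3 (-1.49), after a difference of 1.10 at number 2, and its mean difference was -0.19 (SE 1.42). Mybpc3, the myosin-binding protein C that tunes crossbridge cycling, read 8.65 and 7.99 in WT and 9.17 and 7.28 in KO, with a smaller slope (0.73, against 1.44 for Myh6). The ventricular light chains Myl2 and Myl3 and the light chain kinase Mylk3 had slopes of 1.28, 1.40 and 1.37. In each of the 5 genes the KO arrays enclosed the WT arrays.

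Thin filament genes showed unequal swings within 1 complex. All 6 had a positive mean difference (median 0.30), were higher in KO at number 2 (median 0.86) and lower than WT at number 3 (median -0.48). Of the troponin subunits, Tnni3, the inhibitory subunit, read 7.09 and 5.35 in WT and 8.47 and 4.69 in KO (difference 0.36, SE 1.53). Tnnc1, the calcium-binding subunit, read 5.30 and 4.27 in WT and 6.72 and 3.61 in KO (difference 0.38, SE 1.22). Tnnt2, the tropomyosin-binding subunit, read 7.86 and 7.53 in WT and 8.47 and 7.43 in KO (difference 0.25, SE 0.45). The range was therefore 3.78 for Tnni3 and 3.11 for Tnnc1 but 1.04 for Tnnt2, whose slope was 0.40. This small range belongs to the brightest probe, since a dimmer Tnnt2 probe had a range of 2.76 and a slope of 1.08. Cardiac actin Actc1 (slope 0.63) and tropomyosin Tpm1 (0.59) also swung less than the median, and Lmod2, a leiomodin that sets thin filament length, did not (1.04).

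Titin and the M-band genes kept close to the common trend. Ttn, the giant spring of the sarcomere, read 6.13 and 5.28 in WT and 7.03 and 4.45 in KO, with a difference of 0.03 (SE 1.01) and a slope of 1.01. Myom1 and Myom2, the myomesins that crosslink thick filaments at the M-band, had slopes of 1.04 and 1.08 and differences of 0.17 and -0.02. All 3 genes were higher in KO at number 2 (0.74 to 1.13) and lower than WT at number 3 (-0.83 to -0.78). Their differences at either number lay nearer to each other than those of the thin filament genes did.

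All 11 Z-disc genes were also higher in KO at number 2 (median 1.18) and lower than WT at number 3 (median -0.72), and all 11 kept the array order. Tcap, telethonin, which caps titin at the Z-disc, read 7.27 and 5.07 in WT and 8.72 and 4.70 in KO. Its difference of 0.54 (SE 1.68) was the highest of the 38 genes, with a range of 4.01 and values that overlapped between genotypes. Fhl2, a LIM protein that binds titin, read 7.01 and 6.27 in WT and 8.31 and 5.81 in KO (difference 0.42, SE 0.98). The alpha-actinin gene Actn2, the main crosslinker of the Z-disc, had a slope of 1.03, and Ldb3, Myoz2, Nebl, Mypn, Pdlim5, Csrp3 and Nexn lay between 0.79 and 1.15. Synpo2l was the flat member (range 0.91, slope 0.34).

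Genes of the filamin, Xin and costamere group were less uniform. Cmya5 (slope 1.08) and Smpx (0.72) followed the order of the arrays, and the actin crosslinker Flnc did so with a small range (1.09). Xirp1, a Xin repeat protein of the intercalated disc, read 2.17 and 1.58 in WT and 3.10 and 1.42 in KO (difference 0.38, SE 0.68). Xirp2, its paralog, read 5.47 and 5.68 in WT and 5.70 and 5.19 in KO (difference -0.13, SE 0.29), so that WT 3 and KO 2 were nearly level. All 3 Xirp2 probes were flat, with slopes of 0.15, 0.18 and 0.08. Of the sarcoglycans, membrane proteins of the dystrophin complex, Sgca had a slope of 1.36 and Sgcd of 0.26.

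Desmin was the sole gene whose genotypes did not overlap. Des, the intermediate filament that joins Z-discs side by side, read 4.81 and 4.80 in WT and 4.68 and 4.41 in KO, lower on both KO arrays. Such a separation was seen downward in 8.81% and upward in 13.2% of all tested genes, so 1 of 38 is not above the background. After quantile normalization Xirp2 was separated too, also lower in KO. The difference was -0.26 (SE 0.22, limma adjusted p 0.9999), the lowest of the 38 genes, and the range of 0.40 the smallest. Des alone among them was lower in KO at both numbers by more than 0.1 (-0.13 and -0.38), while the trend ran up at number 2 and down at number 3. Cryab, the alpha B-crystallin chaperone of desmin, read 6.21 and 5.84 in WT and 7.22 and 5.86 in KO (difference 0.51, SE 0.55), and it was the 1 gene of 38 that was not lower in KO at number 3 (0.01). A dimmer Cryab probe did not follow the trend (slope -0.11, range 0.57) and differed by 0.35 at number 2 and 0.21 at number 3.

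The muscle RING finger ubiquitin ligases, which mark sarcomere proteins for breakdown, split. Trim63 (MuRF1) read 3.44 and 2.56 in WT and 4.24 and 1.63 in KO (difference -0.06, SE 1.03), close to the common trend with a slope of 1.02. Trim54 was similar, with a slope of 1.04. Trim55 (MuRF2) read 0.58 and 0.14 in WT and 0.49 and 0.12 in KO, a range of 0.45 and a difference of -0.06 (SE 0.29). Trim55 and Des were the genes that were not higher in KO at number 2. Ckm, the muscle creatine kinase that binds the M-band, stood at the other end. It read 2.96 and 0.69 in WT and 4.54 and -0.24 in KO, a range of 4.77 or 27.3-fold, and its difference was 0.33 (SE 1.94).

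**Figure D2:**
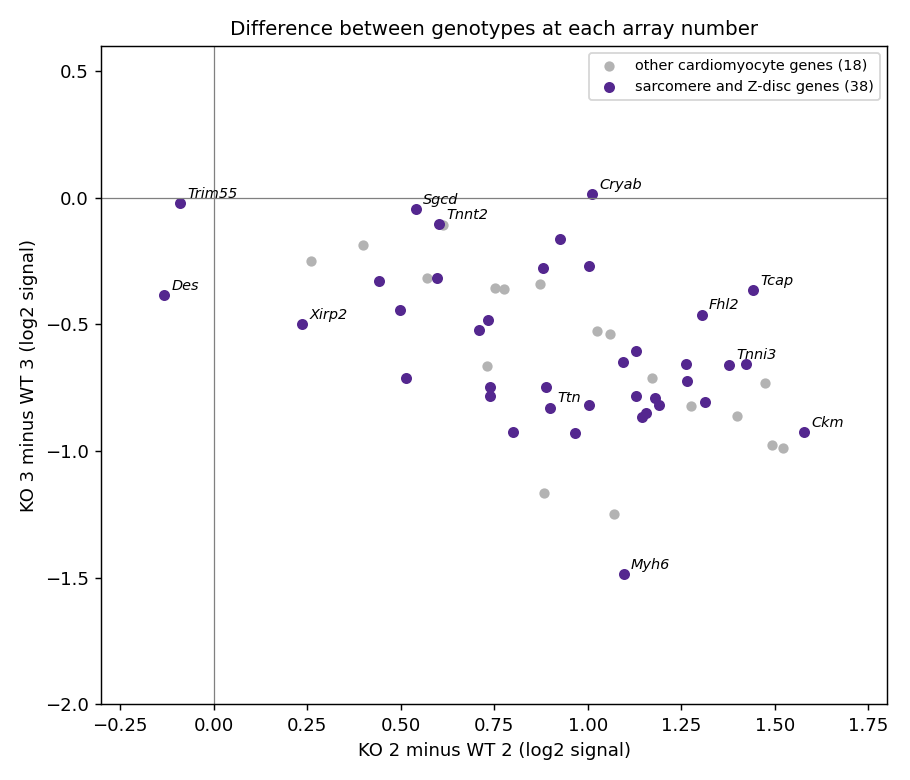
Difference between genotypes at number 2 (KO 2 minus WT 2, x axis) against number 3 (KO 3 minus WT 3, y axis), log2 units, 1 point per gene, for the 38 sarcomere and Z-disc genes (purple) and 18 other cardiomyocyte genes (grey). Of the 38, 36 lie right of 0 and 37 below 0, with Des and Trim55 left of 0, Cryab on the line at 0.01 and Myh6 lowest at -1.49.

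Which genes departed from the common trend was asked in 3 ways. By size, a gene was to differ from the median difference of the 38 genes by at least 0.5 in the same direction at both numbers. By this rule 0 of 38 departed, and Tcap came nearest, with departures of 0.46 and 0.29. The rule cannot count a gene that swung less or more than the rest, since its departures have opposite signs. Among such genes were Trim55 (-1.07 at number 2, 0.64 at number 3), Des (-1.12 and 0.27) and, swinging more, Ckm (0.59 and -0.27). In a limma fit with each array shifted by the median of the 38 genes, 0 of them were called, against 0.00713% of all genes, and 0 had an unadjusted p under 0.05, against 0.221%, but this fit gave every probe an SE of 1.29 while the differences of the 38 genes ran from -0.35 to 0.44, so it could not have called any of them and says nothing on departure. In a limma fit with the common trend as a covariate, 0 of them were called (0% of all genes). There Cryab (0.45, SE 0.10, limma unadjusted p 0.022) and Myh6 (-0.37, SE 0.10, limma unadjusted p 0.035) had an unadjusted p under 0.05, against 14.7% of all tested genes, and the lowest adjusted p was 0.32. Des gave -0.27 (SE 0.10) and Fhl2 0.30 (SE 0.10) in that fit, which leaves 1 residual degree of freedom. The trend was computed from the same arrays and genes.

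Genes with several probes gave a check within the gene. Of the 81 probes 78 were tested, and 21 genes had more than 1. The brightest probe had a smaller range than the median of the other probes in 13 of these genes and a larger one in 8. Of the 40 other probes, 3 went against the brightest probe of their gene at number 2 and 5 at number 3. All 9 titin probes, between 76542041 and 76803224 on chromosome 2 (mm9), were higher in KO at number 2 (0.40 to 1.19) and lower than WT at number 3 (-0.92 to -0.54). The 60-base sequence of the brightest probe of Ttn and of Pdlim5 is shown beside that of the Ttn probe with the smallest range and of a Pdlim5 probe that ran the other way, with mm9 positions from the array files and the probe strand as 5′ to 3′ in lower case throughout.
Ttn brightest probe, chr2:76783527-76783586 (- strand): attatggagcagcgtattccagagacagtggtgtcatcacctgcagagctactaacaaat
Ttn probe with the smallest range, chr2:76689775-76690126 (- strand): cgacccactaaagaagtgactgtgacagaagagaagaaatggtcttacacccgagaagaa
Pdlim5 brightest probe, chr3:141966314-141966373 (- strand): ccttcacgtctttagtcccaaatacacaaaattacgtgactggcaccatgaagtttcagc
Pdlim5 opposed probe, chr3:141907934-141910276 (- strand): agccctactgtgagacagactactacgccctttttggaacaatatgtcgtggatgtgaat
The brightest Ttn probe had a slope of 1.01 and the one with the smallest range (1.67) a slope of 0.66, while the Ttn probe with the largest range (3.49) had a slope of 1.40. Pdlim5, an enigma-family Z-disc adaptor, was split. Its brightest probe read 3.55 and 3.01 in WT and 4.70 and 2.17 in KO, while the opposed probe read 1.54 and 1.85 in WT and 0.94 and 1.98 in KO. The brightest probe thus differed by 1.16 at number 2 and -0.85 at number 3, and the opposed probe by -0.60 and 0.14, in a span of 2343 bases that crosses an intron. A further Pdlim5 probe next to it gave -0.50 and 0.20, and the array design assigns these 2 and the brightest probe to different transcripts of the gene. Tpm1 had 1 such probe of 3, at -0.66 and 0.66, against 0.50 and -0.44 for its brightest. The remaining exceptions, at number 3 alone, were another Pdlim5 probe at 0.24 and a Flnc probe at 0.01. These probes were picked out after their values were seen.

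**Figure D3:**
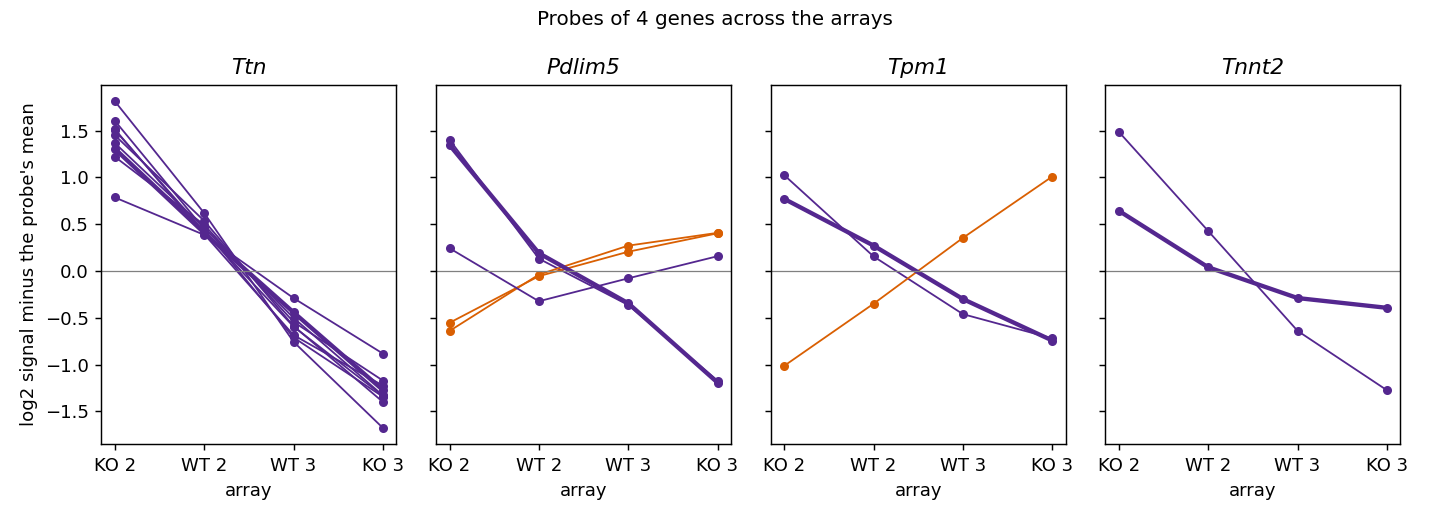
Log2 signal of each tested probe of Ttn, Pdlim5, Tpm1 and Tnnt2 minus the mean of that probe, with the arrays along the x axis in the order of the common trend. Thick lines are the brightest probes and orange lines the probes with a negative slope on the common trend. The 9 Ttn probes run from high on KO 2 to low on KO 3, whereas 2 Pdlim5 probes and 1 Tpm1 probe run the other way.

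Other muscle genes were compared to see how far the swing reached. Of 65 further muscle and chaperone genes, many of them of the sarcomere and Z-disc, 59 were tested and 0 called. Their median difference was 0.19 (0.61 at number 2, -0.15 at number 3). They moved less uniformly than the 38, with KO above WT for 43 at number 2 and below it for 36 at number 3, and 30 in the array order. Casq1 (1.16, SE 1.23, well above background on 3 arrays) and Pdlim3 (-0.59, SE 0.45) had their highest and lowest differences. Myh7, the beta myosin heavy chain, read 8.31 and 7.38 in WT and 8.30 and 7.19 in KO, so that KO 2 and WT 2 differed by -0.01, against 1.10 for Myh6. Whether either probe also picks up the other myosin transcript was not tested. All 18 other cardiomyocyte genes of calcium handling, energy supply and transcription were higher in KO at number 2 (median 0.95) and lower than WT at number 3 (median -0.60), between Cox7a1 (0.37) and Ryr2 (-0.14) in mean difference. Of 12 skeletal muscle genes 9 were tested, with a median of 0.07, between Tnnc2 (0.59) and Myl1 (-0.23), and the Myh4 and Myh8 probes belong to a near-identical family and are uncertain.

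Marker lists of other cells also differed between the arrays. The 10 leukocyte and macrophage genes averaged 1.98 on KO 2, 3.25 on WT 2, 3.66 on WT 3 and 3.96 on KO 3, the reverse of the order of the 38 genes, between Lyz2 (-0.26) and Ptprc (-0.77) in mean difference. The 10 fibroblast and matrix genes averaged 4.34, 5.25, 5.40 and 5.33 on the same arrays, between Col3a1 (-0.11) and Tcf21 (-0.81). All 10 genes of each list were lower on KO 2 than on WT 2. The 10 endothelial genes averaged 2.87, 2.29, 2.38 and 2.09 (Kdr 0.34 to Tek -0.30), where KO lay above WT for all 10 at number 2 and below it for 9 at number 3. The 6 smooth muscle genes averaged 2.30, 2.25, 2.83 and 3.20 (Smtn 0.51 to Myh11 -0.16). Of the 3 atrial genes, Myl4 differed by 2.99 (SE 2.24) and Myl7 by 3.84 (SE 2.26), both high on KO 2 alone. Sln was also highest on KO 2 (5.95), but it was well above background on only 1 of the 2 WT arrays, and its difference is not given. At number 3, with 1 array per genotype, the 38 genes differed by a median of -0.66. The part of cell content, of atrial tissue and of position on the slide in these differences was not tested.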

How the data were processed

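Left ventricular RNA was measured on 4 single-colour arrays, 2 WT and 2 KO, grouped by their labels. The authors deposited each array's spot intensity from Agilent Feature Extraction 10.7, background-subtracted and detrended per the file headers, with coordinates on mm9, and a table of log2 values made with GeneSpring. Between 99.9% and 99.96% of that deposited log2 table differed by under 0.01 from log2 processed signals after quantile normalization, with a median of 6.78 on each array; it was used as an alternative. All 4 arrays lay on 1 slide, WT and KO at different positions, so position and genotype cannot be told apart. Between 92 and 116 spots per array were flagged and left out, 0 were saturated, and 68.1% to 72.0% of probes were well above background. The number of arrays limits the precision.

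The log2 processed signal was shifted by the 75th percentile of each array (signal 607.6 on KO 2 to 976.1 on WT 3), and spots of a probe were averaged. Of 41174 probes, 28292 were tested (well above background on both arrays of a group), 12876 were too dim and 6 lacked a value. Genotypes were compared by limma 3.58.1 (R 4.3.3; lmFit, then eBayes), adjusted by Benjamini-Hochberg over all tested probes, without covariates, after the script was tested on simulated data. A call needed an adjusted p below 0.05 with over 2-fold change, the study's thresholds. Gene shares are over the brightest probe of 14025 tested genes with a RefSeq symbol or in a list. Promoters came from RefSeq (GRCm38.p6).

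The 38 genes, the lists and the tests were chosen with earlier results of these data known. Given with every array's value were the 5 highest and 5 lowest differences, the 3 largest and 3 smallest ranges, genes with non-overlapping groups, Myh6, Tnnt2, Tnni3, Ttn and Kdm5b. Of other lists, the genes with the highest and lowest difference were named with that difference, except Sln, whose difference is not given. Alternatives were normexp (offset 50), quantile normalization, a median shift, no filter, a filter on all 4 arrays, the deposited log2 table, a block for array number, leaving out each array, trended robust eBayes, the t-test named in the methods, the mean of all probes, the common trend as covariate, and the trend of other cardiomyocyte genes. A slide block could not be fitted with 1 slide.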

Additional observations from a re-analysis of the deposited data

Results flagged for a closer look

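The difference between the array numbers stood out. The 38 genes had a median difference of 0.98 at number 2 and of -0.66 at number 3, opposite in sign for 35 genes, with 1 array per genotype at each number. In the deposited log2 table the medians were 0.58 at number 2 and -0.74 at number 3, so the size of the swing depends on the scaling. The difference between the numbers was not tested. In both genotypes the number 2 arrays carried Xist signal and the number 3 arrays Ddx3y signal, so array number and sex signal cannot be told apart. KO 2 also carried atrial transcripts, and the part of either was not tested.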

How the results depend on the processing

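None of the 38 genes was called under any setting, including the array number as a block (0 called, adjusted p 0.99 or higher for the genes named) and the methods' t-test (0 at its thresholds, before and after Benjamini-Hochberg adjustment). Deviations of same-numbered arrays correlated at 0.57 over 28292 probes, but the labels do not tie the numbers to a shared animal, day or batch. Same-numbered arrays did share the Xist or Ddx3y signal. Genes with non-overlapping groups numbered 2 after quantile normalization and 2 in the authors' values (Des and Xirp2 in both). With the mean of all probes they numbered 2 (Des and Cryab), against 1 in the main setting. The share of all tested genes is given for the main setting only (8.81% downward, 13.2% upward). With 1 array left out, the median difference ran from -1.12 to 1.41, genes over 2-fold from 0 to 28, non-overlapping genes from 2 to 37, and called genes stayed at 0. Relative to the member median 0 were called in each setting too, though with all 4 arrays and an SE of 1.29 that fit could have called none. The lowest and highest median differences were those without KO 2 and without KO 3. A lone array was assumed to vary like the other group. Of 176 values of 16 named genes with 4 arrays, 169 kept their direction and 7 reversed: Ttn at -0.0194 with normexp, -0.26 after quantile normalization, -0.26 in the authors' values and -0.0903 with the trend covariate, Tnnt2 at -0.0836 after quantile normalization and -0.0734 in the authors' values, and Trim63 at 0.00808 with the mean of all probes; the cause was not tested. With 1 array left out, 23 of 64 reversed. Those ranges were -2.06 to 2.71 for Ckm, -0.17 to 1.20 for Cryab, -0.83 to 1.67 for Fhl2, -1.04 to 0.85 for Mybpc3, -2.04 to 1.65 for Myh6, -1.47 to 2.55 for Tcap, -1.17 to 1.94 for Tnnc1, -1.53 to 2.25 for Tnni3, -0.27 to 0.77 for Tnnt2, -0.27 to 0.16 for Trim55, -1.37 to 1.24 for Trim63, -1.25 to 1.32 for Ttn, -0.46 to 1.22 for Xirp1 and -0.39 to 0.13 for Xirp2. Des stayed between -0.39 and -0.12 and Kdm5b between -1.46 and -0.53. Normexp moved the median of all probes from 0.02 to 0.13. All 38 genes were well above background on all 4 arrays.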
